A study of Mus musculus with 25 samples.

Results

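The regions described here are the open chromatin peaks whose nearest protein-coding gene start belongs to 1 of 48 genes of T-cell receptor and NF-kB signaling. They were found by distance alone, from the midpoint of each peak to gene starts of GENCODE vM39 on the mouse genome GRCm39, which does not show that a peak acts on that gene. The rule assigned 167 of the 13527 peaks to 46 of the genes: 50 promoter peaks, whose midpoint lay within 1000 bp of a transcript start, for 42 genes, and 117 distal peaks for 32 genes. The transcript could be any protein-coding one, so a promoter peak can lie far from the start of its gene. Cd8b1 and Akt1 had no peak, and Lcp2, Nfkbia, Ppp3cc and Ubash3b had distal peaks only. The 25 ATAC-seq libraries were made from CD8+ T cells of spleen and pooled lymph nodes of individual young adult female C57BL/6 mice. An OVA peptide tetramer was used for the sort, a peptide that 2W-OVA.BALB/c skin grafts and fathers carry, and the cells are called T_FGS. Naive mice (n = 3) had neither graft nor pregnancy, Sensitized mice (n = 4) had rejected a graft, and N+P and S+P mice were naive or sensitized females taken shortly after giving birth. Their cells were sorted further into PD1- cells (N+P C1, n = 3, and S+P C4, n = 4), PD1+CD73+ cells (N+P C5, n = 3, and S+P C5, n = 4) and PD1+CD73- cells (S+P C7, n = 4). PD1, which the paper counts among coinhibitory markers, and CD73 are surface proteins, and the labels give no sort by them for Naive and Sensitized. Comparisons of a sorted subset with Naive or Sensitized therefore mix the sort with pregnancy, which cannot be told apart, while C5 and C7 differ from C1 and C4 of the same history by the sort. In the paper, S+P mice were mated at the time after grafting when Sensitized mice were taken. Time since the graft is therefore mixed into comparisons of S+P with Sensitized as well. In bulk libraries fewer cells with an open site and less opening per cell cannot be told apart.

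The T-cell receptor has no enzyme activity of its own. On binding antigen, the kinase Lck phosphorylates the CD3 and zeta chains, Zap70 docks there and phosphorylates the adaptors Lat and Lcp2, and the assembled complex starts calcium, Ras and protein kinase C theta signals. Calcium activates calcineurin and NFAT, and protein kinase C theta acts through Bcl10 and Malt1 to release NF-kB from its inhibitors. A further set of proteins, among them Csk, Pag1, Cd5, Sla and the Ubash3 phosphatases, damps the signal.

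The windows below are 300 bases round the midpoint of 7 distal peaks, plus strand of GRCm39. They are shown as examples, the first 5 from 5 genes with a peak that gained accessibility in at least 1 of the comparisons that follow and the last 2 from genes with a peak that lost it. Capitals mark matches on either strand to short strings of transcription factor families: AP-1 (TGANTCA), NF-kB (GGGANNTTC), NFAT (TGGAAA), RUNX (TGTGGT), TCF/LEF (CTTTGAA), T-box (AGGTGTGA) and ETS (CCGGAAG).
Fyn, intron, chr10:39311068-39311367 (2 AP-1 and 1 NFAT match): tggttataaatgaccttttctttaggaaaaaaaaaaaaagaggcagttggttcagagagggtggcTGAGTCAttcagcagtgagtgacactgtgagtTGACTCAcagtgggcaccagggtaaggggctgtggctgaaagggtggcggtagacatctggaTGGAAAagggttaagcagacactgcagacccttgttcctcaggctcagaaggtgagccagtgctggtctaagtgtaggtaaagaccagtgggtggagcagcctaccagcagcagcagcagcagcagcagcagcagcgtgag
Nck1, intron, chr9:100422347-100422646 (1 RUNX and 2 NFAT matches): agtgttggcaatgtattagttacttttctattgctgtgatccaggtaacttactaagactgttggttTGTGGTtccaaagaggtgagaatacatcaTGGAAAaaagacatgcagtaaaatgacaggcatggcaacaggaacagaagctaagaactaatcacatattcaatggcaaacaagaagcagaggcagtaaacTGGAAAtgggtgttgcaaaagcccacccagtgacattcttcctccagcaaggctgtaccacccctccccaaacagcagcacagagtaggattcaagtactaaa
Nfkbiz, between genes, chr16:55590707-55591006 (2 NFAT, 1 RUNX and 1 T-box match): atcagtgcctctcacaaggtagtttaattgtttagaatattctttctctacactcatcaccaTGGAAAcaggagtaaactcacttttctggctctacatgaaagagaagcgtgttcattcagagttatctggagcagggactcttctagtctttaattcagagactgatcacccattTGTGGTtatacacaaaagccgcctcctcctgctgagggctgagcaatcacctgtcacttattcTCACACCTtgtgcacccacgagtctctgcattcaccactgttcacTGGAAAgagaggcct
Ubash3b, intron, chr9:41055222-41055521 (1 TCF/LEF and 1 AP-1 match): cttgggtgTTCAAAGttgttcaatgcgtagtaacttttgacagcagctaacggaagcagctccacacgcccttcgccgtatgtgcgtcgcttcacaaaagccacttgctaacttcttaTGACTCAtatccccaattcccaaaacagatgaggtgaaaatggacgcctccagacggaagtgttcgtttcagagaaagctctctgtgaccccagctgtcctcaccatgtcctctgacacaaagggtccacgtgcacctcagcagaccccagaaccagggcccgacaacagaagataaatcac
Cd247, intron, chr1:165630794-165631093 (1 NFAT match): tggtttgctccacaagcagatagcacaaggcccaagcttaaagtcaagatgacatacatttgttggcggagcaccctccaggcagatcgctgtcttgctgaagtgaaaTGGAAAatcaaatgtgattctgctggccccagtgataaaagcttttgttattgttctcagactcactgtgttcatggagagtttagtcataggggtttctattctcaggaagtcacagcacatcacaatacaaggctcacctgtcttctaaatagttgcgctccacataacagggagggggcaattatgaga
Prkcq, between genes, chr2:11123310-11123609 (no match): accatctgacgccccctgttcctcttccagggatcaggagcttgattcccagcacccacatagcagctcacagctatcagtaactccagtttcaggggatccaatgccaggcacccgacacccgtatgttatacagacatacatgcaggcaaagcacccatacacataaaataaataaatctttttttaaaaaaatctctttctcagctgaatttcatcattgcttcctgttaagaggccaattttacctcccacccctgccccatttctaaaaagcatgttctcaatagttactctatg
Pag1, between genes, chr3:9930633-9930932 (1 RUNX match): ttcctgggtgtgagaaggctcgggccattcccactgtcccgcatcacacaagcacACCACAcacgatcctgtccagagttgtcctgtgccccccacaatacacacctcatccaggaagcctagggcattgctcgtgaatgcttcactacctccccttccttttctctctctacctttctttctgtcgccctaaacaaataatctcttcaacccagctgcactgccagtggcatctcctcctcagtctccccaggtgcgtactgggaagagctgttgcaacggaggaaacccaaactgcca
A match is a description of letters, not a bound site. Across the 117 distal windows, NFAT strings were present in 40 (34.2%, against 25.5% of all distal peaks), RUNX in 50 (42.7% against 40.6%), AP-1 in 16 (13.7% against 15.9%), TCF/LEF in 15 (12.8% against 8.9%), NF-kB in 9 (7.69% against 4.32%), T-box in 8 (6.84% against 3.02%) and ETS in 5 (4.27% against 4.73%). In the 50 promoter windows NFAT and RUNX strings were present in 11 each (22%, against 12.6% and 11.9% of all promoter peaks), NF-kB and ETS in 4 each (8.0%, against 3.61% and 18.8%), AP-1 and TCF/LEF in 2 each (4.0%, against 4.08% and 2.65%) and T-box in 1 (2.0% against 0.652%).

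Libraries held between 2430890 (S+P C4 replicate 1) and 25419715 counts in peaks, with a median of 8197552. A member peak held between 4 and 6257 reads in a library, with a median of 425. Across all peaks, Sensitized replicates 3 and 4 were nearer to the mean of N+P C5 (r of log2 values 0.973 and 0.955) than to the other Sensitized libraries (0.918 and 0.937). The nearest group mean was that of S+P C4 for Sensitized replicate 1 (0.931, own group 0.868), that of N+P C5 for S+P C4 replicate 1 (0.923, own group 0.869) and that of N+P C1 for Naive replicate 3 (0.988, own group 0.97). Counts of calls against Sensitized are therefore also given without replicates 3 and 4, an alternative chosen after seeing the data. Values without them are given for many, but not all, named peaks whose call changed. Of 8 CD8 T-cell marker genes 7 had a promoter peak, all but Cd8b1, and their summed normalized count was between 2937 and 4317 in every library. None of 7 B-cell and 8 myeloid marker genes had a promoter peak. The NK list had 3 of 6 (Klrd1, Nkg7 and Eomes, which activated CD8 T cells also use), and the defining genes Ncr1, Klrb1c and Tyrobp had none. The summed count of those 3 genes was 1858 to 2136 in Naive, 1912 to 2272 in N+P, 2212 to 3033 in Sensitized, 2447 to 3280 in S+P C4, 2988 to 3297 in S+P C5 and 3644 to 3834 in S+P C7, and its part in the results was not tested. The 3 genes went apart. The group mean of Klrd1 was 454 in Naive and 233 in S+P C7, with the lowest value, 199, in S+P C5. Nkg7 ran from 1185 in Naive to 2467 in S+P C7, and Eomes from 333 to 1034. Ctla4 and Il2ra were the only 2 of 6 genes on the CD4 and regulatory T-cell list with a promoter peak (summed 692 to 1049 over all libraries), and Klf1 the only 1 of 4 on the erythroid list (388 to 528).

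Promoters of the signaling genes varied about as much between groups as promoters in general, and distal peaks likewise. The ratio of the highest to the lowest of the 7 group means had a median of 1.37 over the 50 promoter peaks and never exceeded 2, against a median of 1.33 and 426 peaks over 2 (5.55%) among all 7670 promoter peaks. Over the 117 distal peaks the median ratio was 1.94, and 56 (47.9%) exceeded 2, against 2.0 and 50.0% over all 5857 distal peaks. Among the strongest promoter peaks of each gene, Bcl10, which links protein kinase C theta to NF-kB, had the narrowest range of group means (2198 to 2400 normalized counts, a ratio of 1.09) and Cd8a, the CD8 coreceptor, the widest (203 in N+P C1 to 379 in S+P C4, a ratio of 1.87). The strongest promoter peaks of Pik3cd, Cd3d, Zap70, Akt2, Tec, Csk, Lck and Sla lay 4098 to 30491 bp from the gene start. Per kb of peak, the promoters of Bcl10 (896), Cd8a (893), Relb (859) and Malt1 (855) had the highest normalized counts and those of Pag1 and Prkcq (316 each) the lowest.

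**Figure D1:**
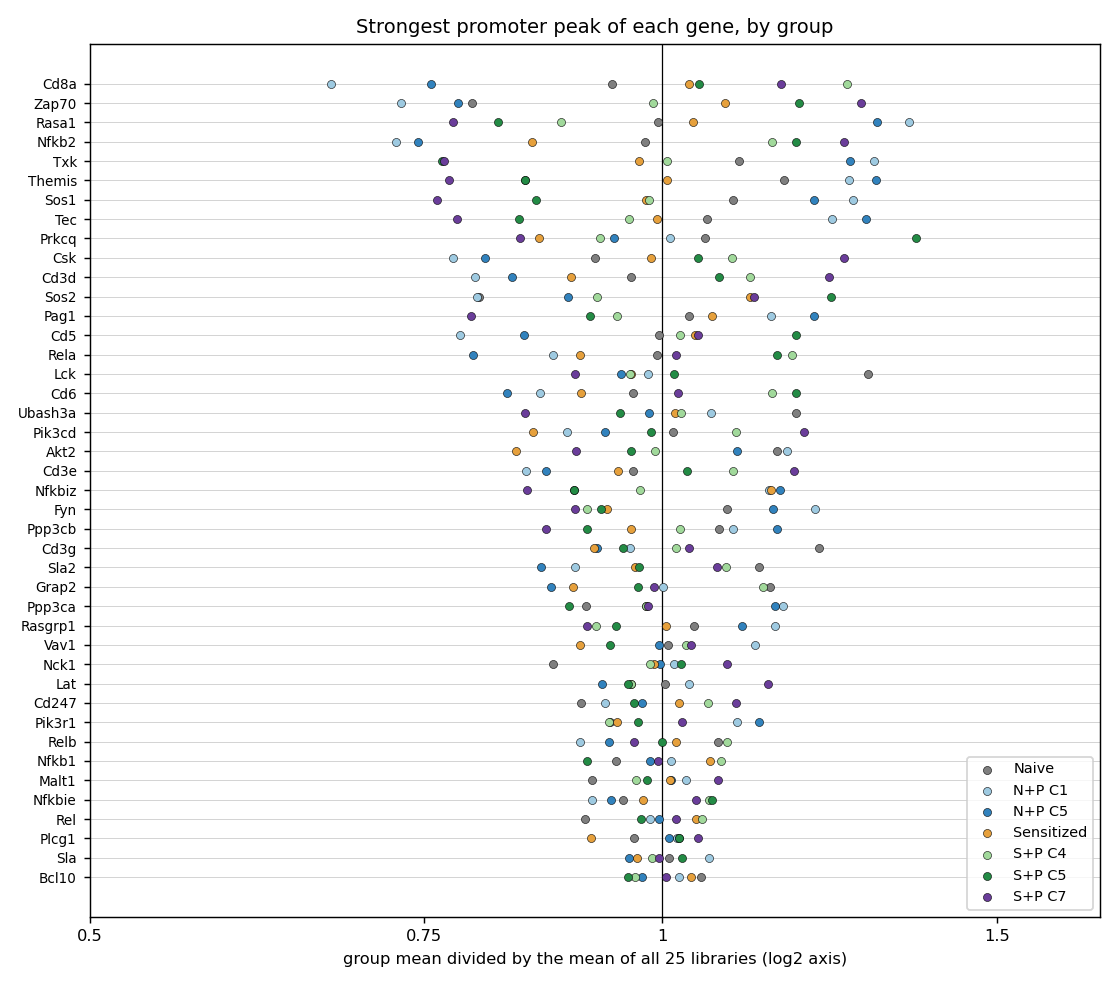
Mean normalized count of each of the 7 groups divided by the mean of all 25 libraries, for the strongest promoter peak of 42 genes on a log2 axis. Genes are ordered by the ratio of the highest to the lowest group mean, from Bcl10 (1.09) at the bottom to Cd8a (1.87) at the top, and errors are not drawn.

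Calls required a DESeq2 adjusted p, over all peaks, below 0.1 together with a log2 fold change beyond 0.9 in either direction, and a peak opened where the group named first was higher. Over 11 comparisons 41 member peaks of 20 genes were called at least once, and 40 of them were distal (34.2% of the distal members, against 44.3% of all distal peaks). The call shares of the members were near or below those of all distal peaks. Between groups without pregnancy, Sensitized vs Naive opened 15 and closed 3 of the 117 distal peaks (12.8% and 2.56%, against 15.4% and 3.04% of all distal peaks). Of memory cells after pregnancy, S+P C5 vs Sensitized opened 6 and closed 6 (5.13% each, against 6.78% and 7.94%), and S+P C7 vs Sensitized opened 9 and closed 11 (7.69% and 9.4%, against 8.2% and 16.4%). S+P C4 vs Sensitized called 1 distal peak, against 1.93% of all. Between PD1+CD73+ cells of the 2 histories, S+P C5 vs N+P C5 opened 23 and closed 10 (19.7% and 8.55%, against 21.5% and 13.9%). Within sensitized mothers, S+P C5 vs S+P C4 opened 7 and closed 1 (against 6.85% and 4.37%), and S+P C7 vs S+P C5 called 1 (against 5.14%). The difference of C5 effects, that is, S+P C5 vs Sensitized minus N+P C5 vs Naive, was called positive for 7 and negative for 3 (against 5.84% and 5.4%).

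Single libraries moved several of these counts. The shares of all 13527 peaks moved in the same direction for each library named here except S+P C4 replicate 4, where the share of all peaks was 5.12% with it and 5.2% without. Promoters included, the 18 member calls of Sensitized vs Naive became 11 without Sensitized replicate 2 (6.59% of the 167 members, against 6.69% of all peaks). The 12 of S+P C5 vs Sensitized became 5 without S+P C5 replicate 2 (2.99% against 5.09%), 6 without Sensitized replicate 3 (3.59% against 4.61%) and 7 without Sensitized replicate 4 (4.19% against 4.81%). The 8 of S+P C5 vs S+P C4 became 4 without S+P C5 replicate 2 (2.4% against 3.6%) and 5 without S+P C4 replicate 4 (2.99%). For the difference of C5 effects the 10 calls became 23 without Sensitized replicate 1 (13.8% against 12%), 16 without S+P C5 replicate 1 (9.58% against 8.24%) and 6 without Naive replicate 2 or Sensitized replicate 4 (3.59%, against 2.92% and 3.39%). Scaling with loess offsets, fitted to the level of each peak, moved the balance of 6 comparisons toward closing, over all distal peaks as over the members. With them the distal members that opened and closed were 17 and 12 in S+P C5 relative to N+P C5 (14.5% and 10.3%, against 13.7% and 17% of all distal peaks), 8 and 4 in Sensitized vs Naive (6.84% and 3.42%, against 11.1% and 5.75%), and 3 and 8 in S+P C5 vs Sensitized (2.56% and 6.84%, against 3.12% and 10.4%). They were 4 and 12 in S+P C7 vs Sensitized (3.42% and 10.3%, against 3.57% and 18.1%), 4 and 3 in S+P C5 vs S+P C4 (3.42% and 2.56%, against 4.01% and 7.46%), and 4 and 8 for the difference of C5 effects (3.42% and 6.84%, against 2.78% and 9.87%).

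**Figure D2:**
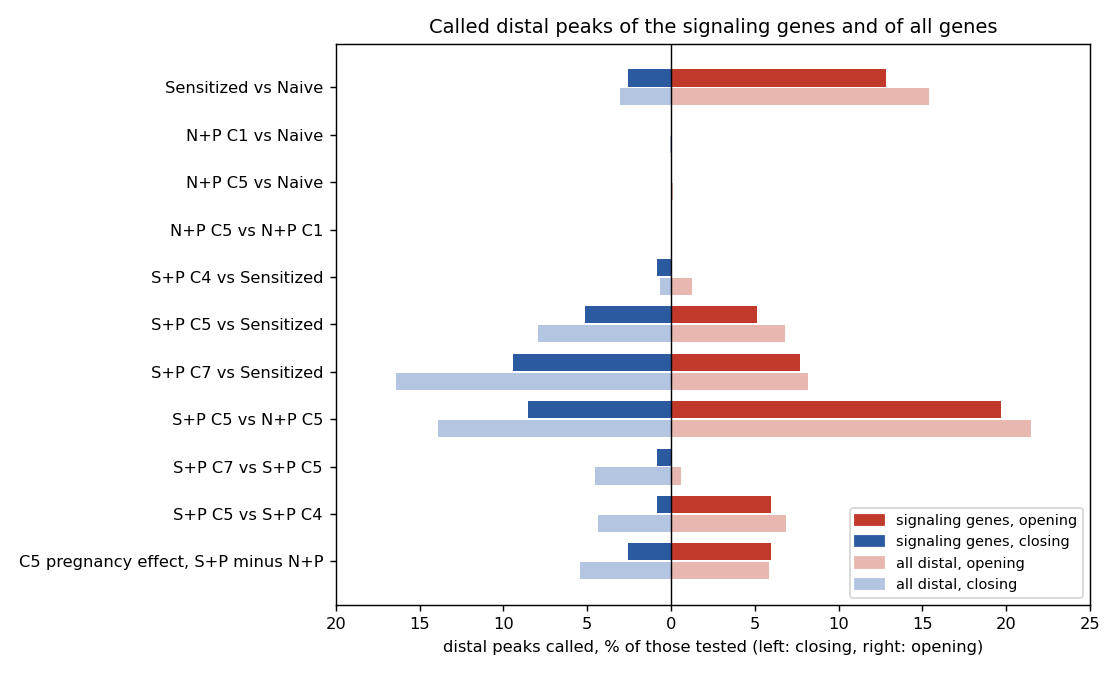
Percent of tested distal peaks called opening (right, red) and closing (left, blue) in each of the 11 comparisons, for the signaling genes (dark) and for all genes (pale). The dark bars lie near or inside the pale ones, with the widest shortfall among closing peaks of S+P C7 vs Sensitized (9.4% against 16.4%).

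Pregnancy of naive females called none of these peaks. In N+P C1 vs Naive, N+P C5 vs Naive and N+P C5 vs N+P C1, DESeq2 and edgeR each called 0 member peaks, where DESeq2 called 0.0835%, 0.116% and 0% of all distal peaks with an adjusted p. The filter on low means left only 23 and 13 distal members with an adjusted p in the first and second. At an unadjusted p under 0.05 the first comparison had 17 distal and 11 promoter members (14.5% and 22%, against 16.6% and 20.8% of all distal and promoter peaks), the second 14 and 10 (12% and 20%, against 13.2% and 20.7%), and the third 1 and 0 (0.855% and 0%, against 4.29% and 0.743%). These shares were near or below those of all peaks. Without Naive replicate 3, N+P C1 vs Naive gave 4 closing calls, all distal (3.42%, against 2.19% of all distal peaks). Without a fold threshold 5 of the 24 promoter members with an adjusted p were higher in N+P C1 than in Naive (20.8%, against 11.8% of all such promoters) and 3 of 21 in N+P C5 (14.3% against 7.56%). These small gains were found in both subsets for Ppp3ca, a catalytic subunit of calcineurin (log2 fold change 0.34 ± 0.08 in N+P C1, with 0.33 ± 0.08 in N+P C5). Rasa1, a Ras GTPase activator (0.44 ± 0.12 and 0.38 ± 0.12), and Pik3r1, a PI3K regulatory subunit (0.22 ± 0.08 and 0.26 ± 0.08), were the others. Errors are SE here and below. Their adjusted p lay between 0.0188 and 0.0656, and in each case all libraries of the N+P group were above all Naive libraries. Fyn (0.15 ± 0.05, adjusted p = 0.075) and Nck1 (0.21 ± 0.08, adjusted p = 0.0942) passed in N+P C1 alone, likewise without overlap, and held 0.08 ± 0.05 and 0.19 ± 0.08 in N+P C5. Both subsets were compared with the same Naive libraries, so their gains are not independent of each other.

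The Sensitized libraries were split in every call against Naive. In all 15 opening peaks replicates 3 and 4 were the lowest Sensitized libraries, and in all 3 closing peaks they were the highest, so that they lay nearer to Naive. Without both, Sensitized vs Naive rose to 23 opening and 7 closing distal calls (19.7% and 5.98%), and the shares of all distal peaks rose to 19.9% and 12.1%. S+P C5 vs Sensitized fell to 4 opening and 1 closing (3.42% and 0.855%, against 4.78% and 2.39% of all), S+P C7 vs Sensitized to 0 and 6 (0% and 5.13%, against 4.46% and 10.3%) and the difference of C5 effects to 2 positive and 1 negative (1.71% and 0.855%, against 3% and 2%), so that calls over all distal peaks fell in the same 3 comparisons. Of the individual member calls, promoters included, all 18 of Sensitized vs Naive were kept without these libraries, 3 of 12 of S+P C5 vs Sensitized, 6 of 21 of S+P C7 vs Sensitized and 2 of 10 of the difference of C5 effects. S+P C5 vs N+P C5 uses no Sensitized library. It also shares no library with Sensitized vs Naive, and 14 of the 15 peaks opened in the latter (93.3%) were among the 23 opened in S+P C5 relative to N+P C5 (60.9% of those). For all distal peaks the shares were 91.8% and 65.6%. Of the closing calls 2 of 3 (66.7%) were among 10 (20%), against 82.0% and 17.9%.

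**Figure D3:**
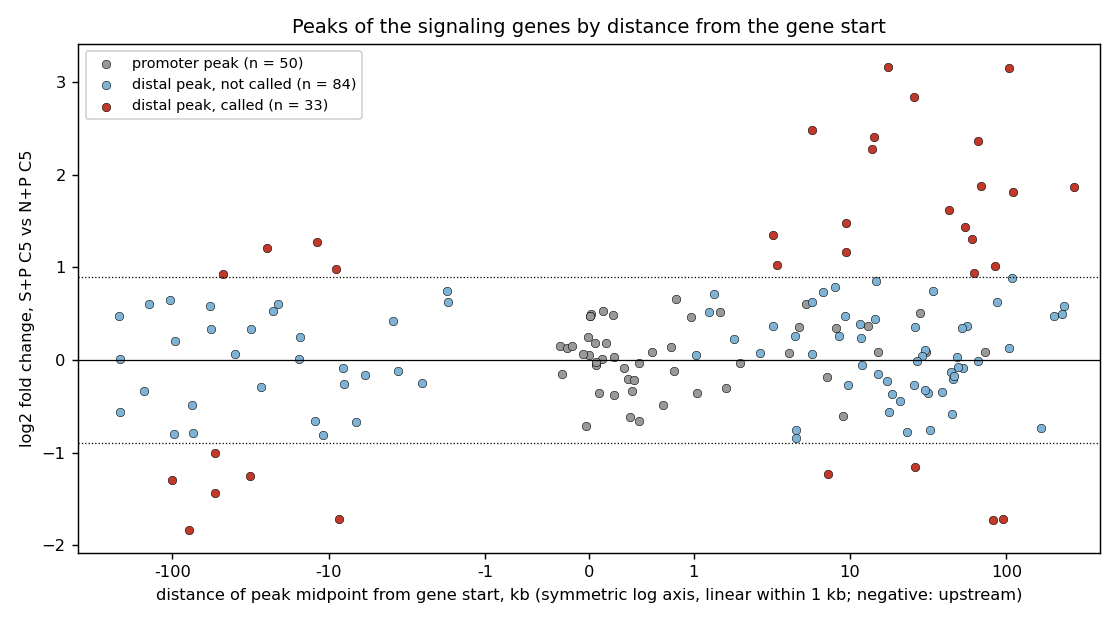
Log2 fold change in S+P C5 relative to N+P C5 of all 167 member peaks against the distance of the midpoint from the gene start, in kb on a symmetric log axis. Promoter peaks (n = 50, grey) stay between -0.71 and 0.66, and the 33 called peaks (red) are distal, from 3200 bp to 271660 bp away, with dotted lines at the fold threshold of 0.9.

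Among the receptor chains and coreceptors (6 genes, 6 promoter and 12 distal peaks), distal calls fell on Cd247, the zeta chain, and Cd8a. Cd247 had 2 intronic peaks with calls. At chr1:165630684-165631204, 14694 bp into the gene, normalized counts were 482, 390 and 289 in Naive, 195, 242 and 284 in N+P C1, 217, 226 and 293 in N+P C5, 196, 272, 186 and 253 in Sensitized, and 286, 215, 225 and 158 in S+P C4. Counts in S+P C5 were 355, 591, 538 and 299, while those in S+P C7 were 274, 403, 325 and 206. All S+P C5 libraries lay above all Sensitized and S+P C4 libraries, and overlapped those of Naive. S+P C5 exceeded Sensitized by a log2 fold change of 0.97 ± 0.24 (adjusted p = 0.00102) and S+P C4 by 1.03 ± 0.25 (adjusted p = 0.000915). The N+P C5 libraries went the other way from Naive (-0.65, not called), and the difference of the C5 effects was 1.62 ± 0.37 (adjusted p = 0.00146), which kept its call under all 24 alternatives tried. The call against Sensitized was lost without S+P C5 replicate 2, S+P C5 replicate 3 or Sensitized replicate 3.

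The second Cd247 peak, chr1:165664901-165665882, had 730, 626 and 389 normalized counts in Naive and 217, 195, 333 and 315 in Sensitized, which did not overlap (-1.13 ± 0.28, adjusted p = 0.000638). In S+P C5 it held 352, 482, 403 and 317, and the difference of the C5 effects was 1.05 ± 0.39 (adjusted p = 0.0419). Downstream of Cd8a, the peak chr6:71364255-71364959 held 56.3, 42.5 and 43.3 in N+P C5 and 210, 321, 245 and 233 in S+P C5 (2.41 ± 0.43, adjusted p = 3.31e-07). The S+P C7 libraries were higher still, at 327, 346, 474 and 389, and Sensitized ranged from 72.2 to 378, overlapping Naive (43.5 to 96.4). The 11927 bp upstream Cd8a peak differed in the same direction in S+P C5 relative to N+P C5 (1.27 ± 0.31, adjusted p = 0.000232). Cd3e, Cd3d and Cd3g, the CD3 chains, had promoter peaks only. Against Sensitized, S+P C7 was higher at Cd3e (0.31 ± 0.14, adjusted p = 0.0567) and at the larger Cd3d peak (0.45 ± 0.15, adjusted p = 0.00938), and neither passed without Sensitized replicates 3 and 4 (0.15 and 0.22).

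Of the kinases (Lck, Fyn, Zap70, Tec and Txk, with 7 promoter and 12 distal peaks), Fyn held the most calls. Fyn is a Src-family kinase related to Lck, and 3 peaks in its introns were called higher in Sensitized than in Naive and higher in S+P C5 than in Sensitized, a second call that only the first of them kept without Sensitized replicates 3 and 4 (1.12, 0.69 and 0.65). The first, chr10:39310829-39311607 at 66367 bp from the gene start, is the window with 2 AP-1 strings. Its normalized counts were 86.8, 90.5 and 66.9 in Naive, 99.6, 81.9 and 62.2 in N+P C1, 95.6, 108 and 97.4 in N+P C5, 246, 229, 99.2 and 108 in Sensitized, and 129, 197, 259 and 148 in S+P C4. The values were 455, 667, 516 and 422 for S+P C5 and 419, 526, 398 and 260 for S+P C7. The 4 S+P C5 libraries lay above every Naive, N+P, Sensitized and S+P C4 library. The log2 fold change was 1.59 ± 0.28 against Sensitized (3.02-fold, adjusted p = 9e-07), 1.48 ± 0.29 against S+P C4 (adjusted p = 1.34e-05) and 2.36 ± 0.31 against N+P C5 (5.13-fold, adjusted p = 1.85e-12). S+P C7 also exceeded Sensitized (1.23 ± 0.28, adjusted p = 0.000102), a call lost without Sensitized replicates 3 and 4 (0.75). The difference of the C5 effects was 1.29 ± 0.44 (adjusted p = 0.0296) and was lost without those libraries (0.8) or without Naive replicate 2.

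The second Fyn peak, chr10:39348135-39348652, was nearly closed in cells of naive history, at 9.42 to 37.6 normalized counts over Naive, N+P C1 and N+P C5. It held 144, 127, 63.1 and 60.7 in Sensitized and 172, 323, 216 and 168 in S+P C5 (8.85-fold above N+P C5, log2 3.15 ± 0.43, adjusted p = 1.3e-11). With offsets fitted to the level of each peak this value fell to 0.24. Against Sensitized the gain in S+P C5 was 1.15 ± 0.37 (adjusted p = 0.0137). The third, chr10:39354935-39356640, held 201, 251 and 201 in N+P C5 and 659, 932, 723 and 747 in S+P C5 (1.81 ± 0.23, adjusted p = 2.38e-13), and Sensitized exceeded Naive by 1.14 ± 0.23. Its gains over Sensitized in S+P C5 (1.0 ± 0.21) and S+P C7 (0.96 ± 0.21) stood near the fold threshold. Both were lost without Sensitized replicate 3 or 4 (0.65 and 0.61 without both), the first also without S+P C5 replicate 2 and the second without S+P C7 replicate 2. The Fyn promoter moved the other way, by -0.3 ± 0.05 in S+P C5 relative to N+P C5 (adjusted p = 4.4e-08) and -0.21 ± 0.05 in Sensitized vs Naive (adjusted p = 0.000321).

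**Figure D4:**
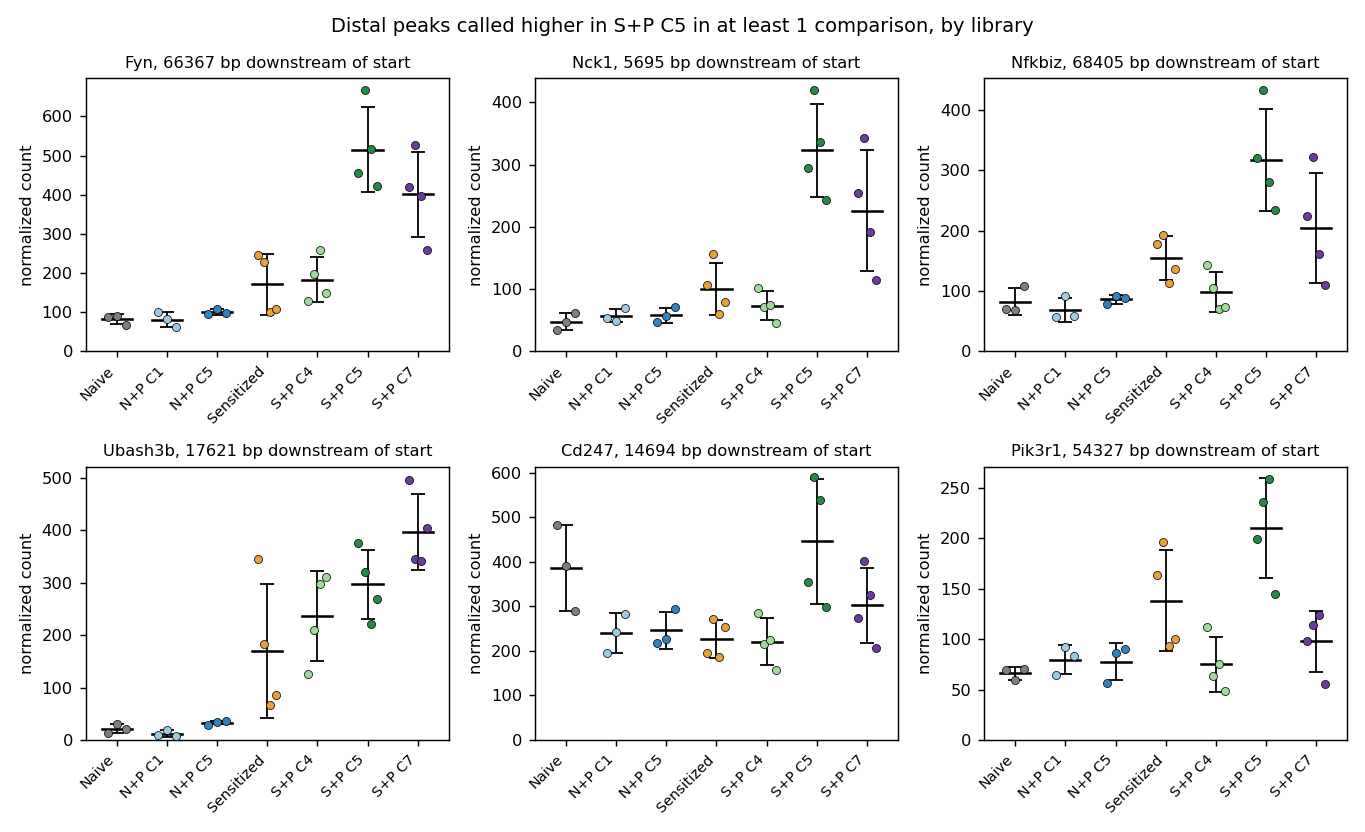
Normalized counts of 6 distal peaks in each of the 25 libraries (points), with the mean (bar) and SD of each of the 7 groups. In the Fyn, Nck1 and Nfkbiz panels the S+P C5 libraries lie above all Sensitized and S+P C4 libraries, in the Ubash3b panel S+P C7 has the highest mean (397), and in the Cd247 panel Naive (387) and S+P C5 (446) are the highest.

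Txk, a Tec-family kinase, had a pair of distal peaks that went apart. The intronic peak chr5:72900294-72901030 held 129, 87.5 and 165 in Naive and 446, 384, 209 and 264 in Sensitized (1.35 ± 0.27, adjusted p = 1.19e-05). It was also higher in S+P C5 than in N+P C5 (1.48 ± 0.27, adjusted p = 3.67e-07). The peak chr5:72918467-72918944, upstream of Txk inside an intron of Tec, held 237, 222 and 357 in N+P C5 and 150, 59.7, 69.8 and 51.5 in S+P C5 (-1.71 ± 0.51, adjusted p = 0.00278). The promoter of Txk was likewise lower in S+P C5 than in N+P C5 (-0.71 ± 0.15, adjusted p = 1.75e-05), as was the Tec promoter peak, 8967 bp from its gene start (-0.6 ± 0.14, adjusted p = 7.49e-05). Both promoter peaks of Zap70 were higher there, the larger by 0.6 ± 0.14 (adjusted p = 0.000107), and this larger one was also higher in Sensitized than in Naive (0.44 ± 0.14, adjusted p = 0.0133). An intronic Lck peak 3393 bp from the gene start rose by 1.03 ± 0.29 in S+P C5 relative to N+P C5 (adjusted p = 0.00114), a call lost without S+P C5 replicate 2.

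Adaptors and exchange factors (10 genes, 9 promoter and 29 distal peaks) gave calls in both directions. Nck1, an adaptor that links the receptor to the cytoskeleton, had a single distal peak, intronic at chr9:100422231-100422764. It held 34.4, 47.2 and 61.8 normalized counts in Naive, 54.2, 48.2 and 69.7 in N+P C1, 46.3, 56.2 and 70.9 in N+P C5, 107, 156, 59.1 and 78.6 in Sensitized, and 102, 71.4, 75 and 45 in S+P C4. Counts in S+P C5 were 294, 419, 336 and 243, while those in S+P C7 were 255, 342, 192 and 114. S+P C5 stood above every library outside S+P C7. Its gain was 1.69 ± 0.32 over Sensitized (adjusted p = 9.3e-06), 2.18 ± 0.34 over S+P C4 (4.53-fold, adjusted p = 1.71e-08) and 2.48 ± 0.36 over N+P C5 (adjusted p = 2.38e-10). With offsets fitted to the level of each peak these became 0.82, 1.41 and 0.43, so that the first and last were no longer called. S+P C7 exceeded Sensitized by 1.17 ± 0.33 (adjusted p = 0.00163), with overlap, and by 0.78 without Sensitized replicates 3 and 4, which was not called. Lcp2, known as SLP-76, had an intronic peak at chr11:33999860-34000381 with 111, 104 and 101 in N+P C5 and 225, 377, 266 and 213 in S+P C5. That difference was 1.35 ± 0.24 (adjusted p = 3.6e-07, 0.57 and not called with those offsets), and the difference of the C5 effects was 1.11 ± 0.34 (adjusted p = 0.0161, 0.78 and not called without Sensitized replicates 3 and 4).

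Rasgrp1, the Ras exchange factor of T cells, had 11 distal peaks and changed in both directions. At chr2:117251851-117252396, 78638 bp upstream, counts were 411, 435 and 329 in Naive, 216, 338 and 343 in N+P C1, 235, 328 and 316 in N+P C5, 110, 139, 258 and 282 in Sensitized, and 282, 201, 112 and 112 in S+P C4. The values were 132, 55.1, 74 and 64.2 for S+P C5 and 72.3, 42.6, 29.8 and 42 for S+P C7. The S+P C7 libraries lay below all Sensitized and all naive-history libraries (-2.06 ± 0.36 against Sensitized, 4.18-fold lower, adjusted p = 1.73e-07, and -1.39 ± 0.39 without Sensitized replicates 3 and 4, still called). S+P C5 was lower than N+P C5 by -1.83 ± 0.37 (adjusted p = 7.22e-06), and its loss against Sensitized (-1.26 ± 0.35) was not called without Sensitized replicates 3 and 4 (-0.59). Sensitized was itself lower than Naive, without overlap (-0.99 ± 0.37, adjusted p = 0.0452). The loss in S+P C5 vs S+P C4 was the only closing call there (-1.08 ± 0.35, adjusted p = 0.0261), with overlapping groups, and ended without S+P C4 replicate 1 or S+P C5 replicate 2. A larger peak nearby, chr2:117247363-117249688, held 1166, 1473, 1444 and 1478 in Sensitized and 690, 831, 769 and 648 in S+P C7 (-0.93 ± 0.11, adjusted p = 2.68e-14). The groups did not overlap, but the value stood near the fold threshold, and 6 of 18 alternatives ended the call, among them leaving out S+P C7 replicate 1, S+P C7 replicate 4, Sensitized replicate 2 or Sensitized replicate 4 (lowest size -0.85). In contrast, peaks 31462 bp and 47289 bp upstream opened, the first in Sensitized vs Naive (1.17 ± 0.29, adjusted p = 0.000666) and the second in S+P C5 relative to N+P C5 (0.93 ± 0.28, adjusted p = 0.00339).

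Grap2, an adaptor that binds Lcp2, had an intronic peak that fell in S+P C7, from 756, 590, 655 and 541 in Sensitized to 242, 334, 335 and 364 (-1.0 ± 0.16, adjusted p = 1.49e-08, -1.08 without Sensitized replicates 3 and 4, lost without S+P C7 replicate 1). Themis, which tunes receptor signals in developing T cells, opened at an intronic peak in S+P C5 relative to N+P C5 (1.17 ± 0.25, 0.05 with offsets fitted to level) and closed at a peak inside Ptprk, 100763 bp upstream (-1.29 ± 0.32, adjusted p = 0.00024). Its promoter and that of Sos1, a Ras exchange factor, were lower in that comparison (-0.61 ± 0.15 and -0.48 ± 0.15), and the promoter of the related Sos2 was higher (0.46 ± 0.13, adjusted p = 0.00189). Distal peaks of Plcg1, Vav1 and Sos1 were not called in any comparison. The largest of their differences under the naming rule was at Plcg1, 25759 bp from its start, with -0.6 ± 0.12 in S+P C5 vs Sensitized (adjusted p = 5.26e-05, -0.74 without Sensitized replicates 3 and 4). Lat, the central scaffold, had a promoter peak only, with group means within a ratio of 1.22.

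The link from the receptor to NF-kB (Prkcq, Bcl10 and Malt1, 3 promoter and 15 distal peaks) had closing calls alone, and all of them were at Prkcq, which encodes protein kinase C theta. Of its 13 distal peaks 3 closed in S+P C5 vs Sensitized, 4 in S+P C7 vs Sensitized and 3 in S+P C5 relative to N+P C5, where 7.94%, 16.4% and 13.9% of all distal peaks closed. The peak chr2:11123063-11123858, 53451 bp upstream, held 339, 381 and 418 in Naive, 334, 371 and 345 in N+P C1, 340, 374 and 411 in N+P C5, 249, 243, 311 and 343 in Sensitized, and 378, 212, 170 and 207 in S+P C4. Counts in S+P C5 were 166, 99.5, 171 and 116, while those in S+P C7 were 162, 93.6, 129 and 99.2. All S+P C5 and S+P C7 libraries lay below every Naive, N+P and Sensitized library. The change was -1.04 ± 0.22 in S+P C5 vs Sensitized (adjusted p = 6.1e-05), -1.24 ± 0.22 in S+P C7 vs Sensitized (adjusted p = 4.82e-07) and -1.43 ± 0.24 in S+P C5 relative to N+P C5 (adjusted p = 2.18e-08). Without Sensitized replicates 3 and 4 the first was -0.82 and no longer called.

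A Prkcq peak 10916 bp upstream was lowest in S+P C7, at 170, 177, 194 and 248 against 407, 385, 480 and 468 in Sensitized (-1.13 ± 0.16, adjusted p = 4.05e-11), and kept that call under all 18 alternatives. A pair of intronic peaks, chr2:11258855-11259609 and chr2:11271109-11271982, was lower in S+P C5 than in N+P C5 (-1.73 ± 0.39 and -1.71 ± 0.47). Their losses in S+P C5 vs Sensitized (-0.97 ± 0.36 and -1.0 ± 0.44) rested on Sensitized replicates 3 and 4, which held 311 and 278 at the first peak against 95.2 and 93.4 in replicates 1 and 2. Without them the direction turned (0.09 and 0.19), and their losses in S+P C7 vs Sensitized (-1.4 ± 0.36 and -1.63 ± 0.44) became -0.34 and -0.44, no longer called. The Prkcq promoter went the other way from these distal peaks in S+P C5, with 404, 499, 369 and 452 normalized counts against 313, 212, 288 and 280 in Sensitized (0.65 ± 0.12, adjusted p = 9.39e-06, 0.71 without Sensitized replicates 3 and 4), and the groups did not overlap. It was also higher than in N+P C5 (0.52 ± 0.14, adjusted p = 0.000648). The S+P C7 libraries did not share this gain, with the lowest group mean (267) and a difference of -0.69 ± 0.13 from S+P C5 (adjusted p = 1.89e-05), without overlap. Bcl10 and Malt1 had 1 distal peak each and no call. The Malt1 peak was higher in Sensitized than in Naive by 0.41 ± 0.14 (adjusted p = 0.021), and the Bcl10 peak was lower in S+P C5 than in Sensitized by -0.37 ± 0.14 (adjusted p = 0.0393), which did not pass without Sensitized replicates 3 and 4 (-0.41 ± 0.18, adjusted p = 0.141).

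**Figure D5:**
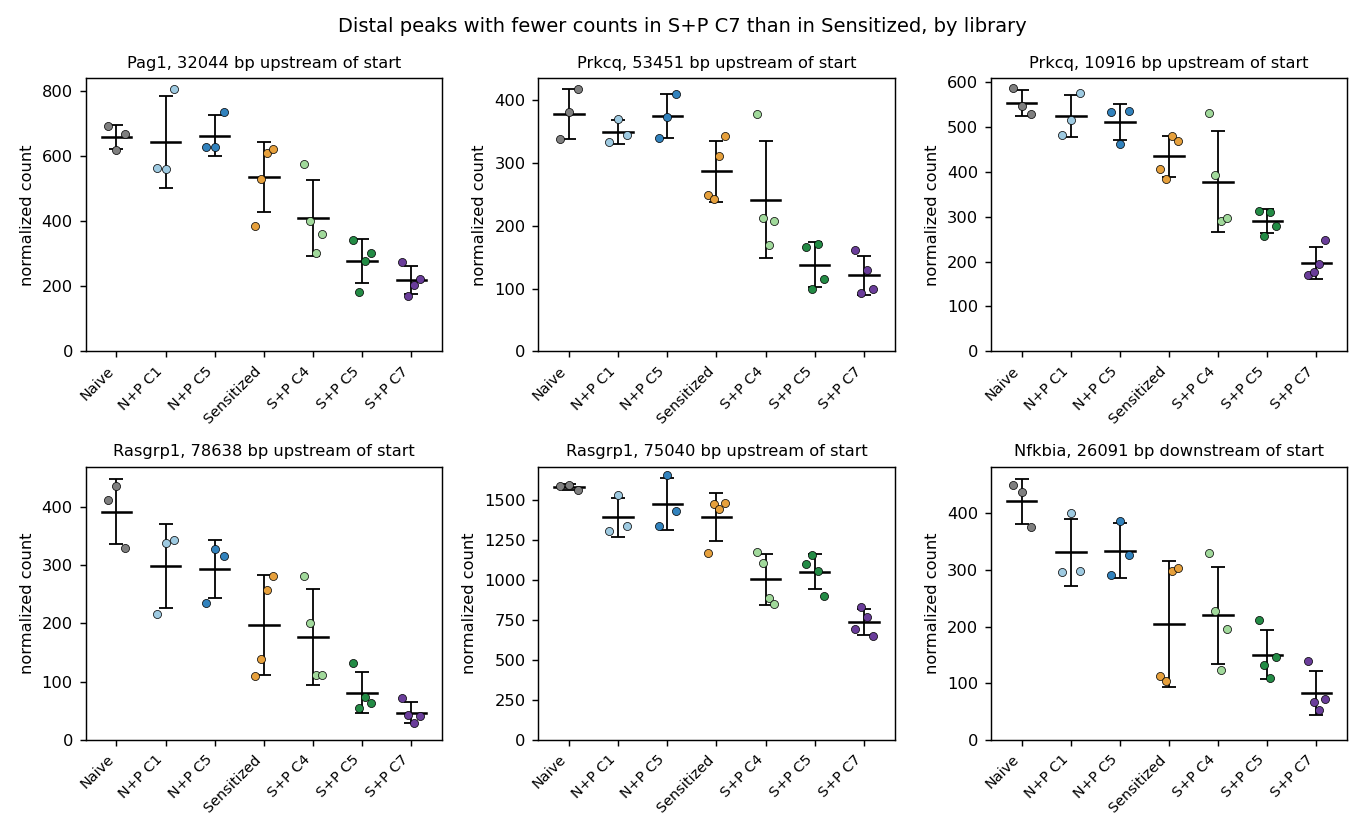
Normalized counts of 6 distal peaks in each of the 25 libraries (points), with the mean (bar) and SD of each of the 7 groups. Every panel has its lowest group mean in S+P C7, and in the second Rasgrp1 panel, 75040 bp upstream, the S+P C7 libraries (648 to 831) lie below all others.

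The NF-kB subunits and inhibitors (8 genes, 7 promoter and 14 distal peaks) had distal calls at Nfkbiz and Nfkbia. Nfkbiz encodes a nuclear inhibitor-family protein that modulates NF-kB target genes, and Nfkbia the classical cytoplasmic inhibitor. The Nfkbiz peak chr16:55590594-55591121, 68405 bp beyond the gene start, held 70.3, 68.8 and 108 in Naive, 56.4, 92 and 58.4 in N+P C1, 78.5, 91.8 and 87.8 in N+P C5, 178, 193, 114 and 136 in Sensitized, and 143, 105, 70.7 and 73.5 in S+P C4. The values were 321, 433, 281 and 234 for S+P C5 and 224, 322, 161 and 110 for S+P C7. S+P C5 was above all Sensitized and S+P C4 libraries, by 1.03 ± 0.29 (adjusted p = 0.00524) and 1.73 ± 0.31 (adjusted p = 1.44e-06). The first was lost without S+P C5 replicate 2, without Sensitized replicates 3 and 4 (0.77), or with offsets fitted to level (0.44). A broader Nfkbiz peak, 84524 bp from the start, held 390, 407 and 529 in Naive and 948, 1196, 644 and 805 in Sensitized (1.02 ± 0.17, adjusted p = 1.42e-07, lost without Sensitized replicate 2). In S+P C5 it held 983, 1122, 1051 and 964, against 509, 433 and 587 in N+P C5 (1.01 ± 0.17).

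The Nfkbia peak chr12:55513076-55513607 closed, from 450, 437 and 376 in Naive to 113, 104, 299 and 303 in Sensitized (-1.04 ± 0.37, adjusted p = 0.0327), a call lost without Naive replicate 1, Naive replicate 2, Sensitized replicate 1 or Sensitized replicate 2. It held 211, 133, 110 and 147 in S+P C5 and 139, 66.4, 53 and 72.5 in S+P C7 (-1.29 ± 0.35 against Sensitized, adjusted p = 0.00109). Without Sensitized replicates 3 and 4 the loss in S+P C7 was -0.36 and not called, while that of Sensitized vs Naive was -1.96 and called. A second Nfkbia peak, 4427 bp from the start, was higher in Sensitized than in Naive by 0.49 ± 0.15 (adjusted p = 0.0097). No distal peak of Nfkb1, Rela or Nfkbie was called, and the largest difference under the naming rule was at Nfkb1, 26131 bp into the gene, higher in S+P C5 than in Sensitized by 0.58 ± 0.14 (adjusted p = 0.000732, 0.75 without Sensitized replicates 3 and 4). Among the subunit promoters, that of Nfkb2, which encodes p100 and p52, held 1095, 784, 753 and 651 in Sensitized, 957, 1307, 1100 and 1156 in S+P C5 and 1063, 1318, 1137 and 1269 in S+P C7. S+P C5 exceeded Sensitized there by 0.46 ± 0.15 (adjusted p = 0.016) and S+P C7 by 0.54 ± 0.15 (adjusted p = 0.00152). Sensitized replicate 1 overlapped both, and neither passed without Sensitized replicates 3 and 4 (0.26 and 0.35). S+P C5 also exceeded N+P C5 (0.66 ± 0.16, adjusted p = 0.000287). Rela, the p65 subunit, was higher in the last comparison (0.53 ± 0.22, adjusted p = 0.0312). The Rel, Relb and Nfkb1 promoters passed an adjusted p of 0.1 in no comparison, with ratios of highest to lowest group mean of 1.15, 1.19 and 1.18. The Nfkbiz promoter was lower than in Sensitized, with -0.34 ± 0.12 for S+P C5 (adjusted p = 0.0242) and -0.42 ± 0.12 for S+P C7 (adjusted p = 0.0019), and the second alone passed without Sensitized replicates 3 and 4 (-0.35 and -0.43).

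Calcineurin subunits (3 genes, 2 promoter and 4 distal peaks) had 1 peak with calls, 271660 bp beyond the start of Ppp3ca at chr3:136646597-136647614. It held 66.1, 96.4 and 82.6 in Naive, 272, 309, 138 and 124 in Sensitized (1.36 ± 0.28, adjusted p = 3.03e-05), 322, 380, 273 and 337 in S+P C5 and 572, 550, 439 and 481 in S+P C7. S+P C7 lay above every Sensitized and S+P C5 library, by 1.28 ± 0.25 against Sensitized (adjusted p = 4.25e-06, 0.82 and not called without Sensitized replicates 3 and 4). The Ppp3ca promoter went the other way in S+P C5 relative to N+P C5 (-0.36 ± 0.08, adjusted p = 2.07e-05), as did that of Ppp3cb (-0.33 ± 0.09, adjusted p = 0.00167).

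In the PI3K group (4 genes, 6 promoter and 11 distal peaks) all calls were at Pik3r1. The intronic peak chr13:101850179-101850617 was high in S+P C5 alone among the sorted subsets, with 199, 236, 259 and 145 normalized counts, against 112, 63.6, 75 and 48.8 in S+P C4 and 97.8, 114, 124 and 55.3 in S+P C7. No S+P C5 library overlapped those subsets. The difference was 1.54 ± 0.31 from S+P C4 (adjusted p = 3.02e-05, 0.76 and not called with offsets fitted to level), and S+P C7 was lower than S+P C5 by -1.11 ± 0.3 (adjusted p = 0.00732), the only member call between those 2 subsets. Sensitized held 164, 196, 92.9 and 100, above Naive (68.9, 59 and 70.7) by 1.06 ± 0.33 (adjusted p = 0.0109). The loss in S+P C4 vs Sensitized (-0.94 ± 0.31, adjusted p = 0.058) was the only member call there, the groups overlapped, and 9 of 18 alternatives ended it. A Pik3r1 peak 235002 bp beyond the start held 327, 427, 367 and 295 in S+P C5 and 262, 191, 158 and 155 in S+P C4, without overlap (0.91 ± 0.21, adjusted p = 0.000599), and 7 of 17 alternatives ended that call. Neighbouring intronic peaks at 60636 bp and 61780 bp opened in S+P C5 relative to N+P C5 (1.31 ± 0.23 and 0.94 ± 0.24). Of 3 promoter peaks of Pik3cd, the catalytic subunit p110 delta, 2 were higher in S+P C7 than in Sensitized, the strongest by 0.47 ± 0.09 (adjusted p = 3.41e-06, 0.39 and still passing without Sensitized replicates 3 and 4), with no overlap between the groups.

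Genes that restrain the signal (9 genes, 10 promoter and 20 distal peaks) held 6 of the 23 opening calls of S+P C5 vs N+P C5, or 30.0% of their distal peaks, against 41.7% for the kinases and 21.5% of all distal peaks. Ubash3b, a phosphatase that acts on Zap70 and Syk-family kinases, had 1 peak, intronic at chr9:41055083-41055662. Its normalized counts were 13.8, 30.5 and 21.5 in Naive, 9.96, 19.1 and 7.54 in N+P C1, 29.2, 34.3 and 36.1 in N+P C5, 346, 184, 65.9 and 85.2 in Sensitized, and 126, 210, 298 and 311 in S+P C4. Counts in S+P C5 were 376, 320, 222 and 269, while those in S+P C7 were 496, 346, 341 and 405. Every library of sensitized history lay above every library of naive history. Sensitized exceeded Naive 7.69-fold (2.94 ± 0.45, adjusted p = 3.08e-09), and S+P C5 exceeded N+P C5 8.97-fold (3.16 ± 0.44, adjusted p = 2.63e-11). Offsets fitted to level lowered these to 1.49 and 1.1, still called. The gain of S+P C7 over Sensitized (1.22 ± 0.39) was lost without Sensitized replicates 3 and 4 (0.58) or with those offsets (0.46).

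Sla, an adaptor that lowers receptor levels and whose gene lies inside Tg, had intronic peaks that followed sensitization. The peak chr15:66678141-66678714 held 81.3, 54.1 and 63.7 in Naive and 465, 333, 109 and 136 in Sensitized (1.98 ± 0.41, adjusted p = 2.36e-05), and 58.4, 58.9 and 30.1 in N+P C5 and 255, 494, 358 and 307 in S+P C5 (2.84 ± 0.41). The peak chr15:66660864-66661472 rose by 1.03 ± 0.22 and 1.62 ± 0.22 in the same comparisons. Sla also had the only called promoter peak of the 50, chr15:66675658-66676096, over the start of an internal transcript. It held 427, 365, 259 and 275 in Sensitized and 140, 174, 215 and 148 in S+P C7 (-0.98 ± 0.18, adjusted p = 1.06e-06, -0.84 and not called without Sensitized replicate 1, -1.25 and called without Sensitized replicates 3 and 4), with no overlap. Cd6, a surface receptor, had an intronic peak with 84, 141 and 95.3 in Naive, 612, 472, 165 and 148 in Sensitized (1.71 ± 0.39), 138, 148 and 101 in N+P C5 and 525, 698, 707 and 575 in S+P C5 (2.28 ± 0.39, adjusted p = 8.87e-08). The related Cd5 had upstream peaks at 24834 bp and 8987 bp that were higher in S+P C5 than in N+P C5 (1.21 ± 0.23 and 0.98 ± 0.22), and the promoters of both genes were too (0.47 ± 0.22 for Cd5 and 0.49 ± 0.19 for Cd6).

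Pag1, the membrane anchor of the inhibitory kinase Csk, moved in the opposite direction. The peak chr3:9930360-9931207, 32044 bp upstream, held 693, 620 and 668 in Naive, 564, 562 and 808 in N+P C1, 628, 628 and 737 in N+P C5, 387, 529, 609 and 623 in Sensitized, and 575, 400, 303 and 362 in S+P C4. The values were 343, 184, 278 and 304 for S+P C5 and 274, 170, 205 and 222 for S+P C7. S+P C5 and S+P C7 lay below every Sensitized library. The change was -1.25 ± 0.22 in S+P C5 relative to N+P C5 (adjusted p = 1.08e-07), -0.94 ± 0.2 in S+P C5 vs Sensitized (adjusted p = 8.17e-05, lost without Sensitized replicate 3, Sensitized replicate 4, both of these (-0.71) or S+P C5 replicate 2) and -1.29 ± 0.2 in S+P C7 vs Sensitized (adjusted p = 7.69e-09, called under all 18 alternatives). Pag1 peaks 53668 bp upstream and 7273 bp into the gene closed in S+P C5 relative to N+P C5 (-1.0 ± 0.16 and -1.23 ± 0.2), and the Pag1 promoter was lower there as well (-0.38 ± 0.13, adjusted p = 0.0102). The Csk promoter peak, 12993 bp from the gene start, was higher (0.37 ± 0.15, adjusted p = 0.0274). The Rasa1 promoter was lower than in Sensitized, with -0.34 ± 0.1 for S+P C5 (adjusted p = 0.0103) and -0.42 ± 0.11 for S+P C7 (adjusted p = 0.00043), and overlapped it in both. Without Sensitized replicates 3 and 4 the second alone passed (-0.24 and -0.32). An intronic Sla2 peak was lower in S+P C5 relative to N+P C5 by -0.84 ± 0.19 (adjusted p = 4.12e-05), under the fold threshold.

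Promoters passed the adjusted p more often than the fold threshold. Without the fold threshold, 5 member promoters were higher and 7 lower in Sensitized vs Naive (10% and 14%, against 4.68% and 4.95% of all promoter peaks), 5 and 3 in S+P C5 vs Sensitized (10% and 6%, against 14.2% and 12.2%), 9 and 9 in S+P C7 vs Sensitized (18% each, against 26.6% and 21.1%), and 13 and 12 in S+P C5 relative to N+P C5 (26% and 24%, against 27.5% and 30.9%). Without Sensitized replicates 3 and 4 the first 3 of these comparisons had 8 and 7 (16% and 14%, against 7% and 10.4%), 3 and 1 (6% and 2%, against 3.13% and 2.09%), and 3 each (6% each, against 11.1% and 7.97%). With the fold threshold and all libraries, DESeq2 called 0, 0, 1 and 0 member promoters in the 4 comparisons, against 1.15%, 0.652%, 2.11% and 3.36% of all promoter peaks. At an unadjusted p under 0.05 these comparisons had 15, 10, 17 and 25 member promoters (30%, 20%, 34% and 50%, against 14.6%, 31.7%, 47.1% and 56% of all promoter peaks), above the share of all promoters in the first and below it in the others.

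The median log2 fold change of the distal members was close to that of all distal peaks. It was 0.113 in Sensitized vs Naive (all: 0.026), -0.025 in S+P C5 vs Sensitized (-0.074), -0.032 in S+P C7 vs Sensitized (-0.085) and 0.209 in S+P C5 relative to N+P C5 (0.024). Distal members lay in introns in 66 cases (56.4%, against 49.9% of all distal peaks) and between genes in 51, at a median of 26131 bp from the gene start (26876 bp for all), and 16 lay over 100000 bp away. In the group peak lists, 10 distal and 14 promoter members (8.55% and 28.0%, against 9.66% and 34.9% of all) were listed for all 7 groups, and 28 and 9 (23.9% and 18%, against 24.3% and 11.0%) for 1 group only. The S+P C4 list was the shortest, with 15.4% of the distal members and 13.3% of all distal peaks, and limits the first count, where the S+P C5 list held 71.8% and 71.5%. Of the 23 distal windows that opened in S+P C5 relative to N+P C5, 10 held the NFAT string (43.5%, against 30.5% of the 1260 distal peaks of all genes that opened), 9 RUNX (39.1% against 45.1%), 5 T-box (21.7% against 7.38%), 3 AP-1 (13.0% against 29.0%), 3 NF-kB (13.0% against 4.44%), 2 TCF/LEF (8.7% against 6.83%) and 0 ETS (against 2.7%). Of the 10 that closed, 3 each held NFAT, RUNX and TCF/LEF (against 22.7%, 42.8% and 16.2% of the 815 of all genes) and 1 AP-1 (against 7.98%), and NF-kB, T-box and ETS strings were in 0 (against 3.8%, 1.23% and 3.56%).

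A list of 45 other genes of these pathways was read alongside, 39 of which had a peak (103 distal, 40 promoter). Of their distal peaks 8 opened and 4 closed in Sensitized vs Naive (7.77% and 3.88%, against 15.4% and 3.04% of all distal peaks), 7 and 5 in S+P C5 vs Sensitized (6.8% and 4.85%, against 6.78% and 7.94%), 8 and 13 in S+P C7 vs Sensitized (7.77% and 12.6%, against 8.2% and 16.4%), and 13 and 8 in S+P C5 relative to N+P C5 (12.6% and 7.77%, against 21.5% and 13.9%). Most of these shares lay below those of all distal peaks. The largest gains of the last comparison were at Tnfaip3, the deubiquitinase A20 that ends NF-kB signals, 68658 bp from its start (4.58 ± 0.51, adjusted p = 2.26e-17), at Itpr1, a calcium channel of the endoplasmic reticulum (4.01 ± 0.49, adjusted p = 1.59e-14), and at Itpkb, a kinase of inositol phosphates (3.86 ± 0.57, adjusted p = 4.06e-10). The same peaks of Tnfaip3, Itpr1 and Itpkb were also called higher in Sensitized than in Naive (2.93 ± 0.48, 3.76 ± 0.49 and 3.27 ± 0.6). Their values under the alternatives are not given here. Other Tnfaip3 peaks closed in S+P C5 relative to N+P C5, the largest by -2.29 ± 0.5. Their 40 promoter peaks had 0 calls by DESeq2 in the 11 comparisons.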

How the data were processed

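ATAC-seq libraries of sorted OVA-specific CD8+ T cells were used as deposited, 25 in all (3 or 4 per group). The authors deposited raw read counts per peak for 1 set of merged peaks. The submitters' processing notes name cutadapt 3.4, Bowtie2 2.2.9, Picard 2.21.8, Genrich 0.6.1, bedtools 2.27.1 and deepTools. The deposited peak lists, pooled per group, carry a reproducibility score for each peak, which was used only to see which group lists hold a peak (overlap of at least 1 bp).

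Counts were fitted with DESeq2 1.42.0 (R 4.3.3, Wald test, group as the only term, all 25 libraries, Benjamini-Hochberg adjustment over all peaks). The dispersion trend was parametric, and in some of the alternative fits DESeq2 replaced it by a local regression. Normalized counts are counts divided by median-of-ratios size factors. Nothing in the labels gives a batch. The study describes cells of individual mice, separate experiments and technical replicates, and the labels do not say which libraries these are. P-values therefore measure the spread between these libraries, which may be partly technical. Peaks were assigned with Python 3.11.15 and pandas 2.3.3. The test was checked on simulated counts for S+P C5 vs Sensitized over 13527 peaks: 98.9% of 87 peaks changed by a log2 of 1.5 and 99.1% of 113 changed by 2.0 were recovered.

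The text names, per comparison, up to 5 opening and 5 closing distal calls and up to 3 promoter calls by smallest adjusted p, the strongest promoter peak of each gene, and the distal peak of each gene with the smallest p over 3 comparisons (Sensitized with Naive, and S+P C5 with either Sensitized or N+P C5). Other peaks named were chosen after their values were seen. The members, gene lists and markers were chosen with earlier results of these data known, so counts over them are descriptions.

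Same-numbered libraries deviated together, with every correlation of deviations over 0.1, between N+P C5 and N+P C1 (0.108 to 0.4) and between S+P C5 and either S+P C4 (0.103 to 0.572) or S+P C7 (0.522 to 0.771), subsets that carry one number per group in the labels. S+P C4 and S+P C7, which were not compared, gave 0.0639 to 0.666. The remaining groups share only a number. Most differently numbered pairs of these subsets gave negative values, but S+P C4 replicate 3 and S+P C5 replicate 2 gave 0.44. Sensitized replicate 1 and S+P C4 replicate 3 gave 0.773. A value over 0.1 therefore does not by itself single out libraries of the same number. Alternatives were edgeR 4.0.16, TMM, total-count and loess scaling, filters, a stricter adjusted p of 0.05, the compared groups alone, a replicate block, other peak assignments and leaving out each library.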

Additional observations from a re-analysis of the deposited data

Results flagged for a closer look

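In 3 of 116 sets of 4 libraries 1 library stood apart by Dixon's test, where chance gives about 1 in 20. The Rasgrp1 peak 75040 bp upstream held 1166 normalized counts in Sensitized replicate 1 and 1444 to 1478 in the others. At the Fyn peak 110936 bp from the start, S+P C7 replicate 2 held 1008 and the others 625 to 678. The Pik3r1 peak 235002 bp from the start held 268 in S+P C7 replicate 3 and 170 to 183 in the others.

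For 10 distal peaks the difference between S+P C5 and Sensitized was not that between N+P C5 and Naive, by DESeq2's test of the difference of log2 fold changes. The labels give no PD1 and CD73 sort for Naive and Sensitized, so each of these differences mixes the sort with pregnancy and with time since the graft. For Cd247 at 14694 bp the difference was 1.62 ± 0.37 (SE, adjusted p = 0.00146), from 0.97 in S+P C5 vs Sensitized and -0.65 in N+P C5 vs Naive. The second Cd247 peak differed by 1.05 ± 0.39 (adjusted p = 0.0419, from 0.55 and -0.51). Lcp2 differed by 1.11 ± 0.34 (adjusted p = 0.0161, from 0.85 and -0.26), Nck1 by 1.44 ± 0.52 (adjusted p = 0.0365, from 1.69 and 0.25) and Cd5 at 24834 bp upstream by 0.91 ± 0.33 (adjusted p = 0.0348, from 0.58 and -0.33). The Fyn peaks at 66367 bp and 103542 bp differed by 1.29 ± 0.44 (adjusted p = 0.0296, from 1.59 and 0.31) and 1.4 ± 0.61 (adjusted p = 0.0781, from 1.15 and -0.25). Negative differences were found for Pag1 at 7273 bp (-1.05 ± 0.28, adjusted p = 0.00646, from -0.78 and 0.27), Pag1 at 32044 bp upstream (-0.95 ± 0.3, adjusted p = 0.0204, from -0.94 and 0.01) and Prkcq at 53451 bp upstream (-1.02 ± 0.33, adjusted p = 0.0213, from -1.04 and -0.02). The number of member peaks called depended on single libraries, rising from 10 (5.99% of 167, against 5.97% of all peaks) to 23 if Sensitized replicate 1 was left out (13.8% against 12%) and to 16 for S+P C5 replicate 1 (9.58% against 8.24%). It fell to 6 for Naive replicate 2 or Sensitized replicate 4 (3.59%, against 2.92% and 3.39%), and to 3 when both Sensitized replicates 3 and 4 were left out, where only the Cd247 peaks of these 10 kept the call. The other differences then kept their direction, with an adjusted p above 0.1. They were 1.05 for Nck1, 0.94 and 0.8 for the Fyn peaks at 103542 bp and 66367 bp, and 0.78 for Lcp2. Cd5 had 0.52, Prkcq -0.8, and Pag1 -0.71 at 7273 bp and -0.72 at 32044 bp upstream.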

How the results depend on the processing

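Of the values of named peaks under the alternatives, 1305 stayed on the same side of the thresholds, 106 lost a call, 7 gained one and 2 turned direction. The last were Prkcq peaks in S+P C5 vs Sensitized without Sensitized replicates 3 and 4 (0.09 at 82321 bp and 0.19 at 94634 bp). Leaving out those libraries gave 31 member calls in Sensitized vs Naive (18 otherwise), 4 in S+P C4 vs Sensitized (1), 5 in S+P C5 vs Sensitized (12), 7 in S+P C7 vs Sensitized (21) and 3 for the difference of C5 effects (10). The single call of S+P C4 vs Sensitized became 0 at an adjusted p under 0.05, with the compared groups alone, with edgeR and with the replicate block, and N+P C1 vs Naive rose from 0 to 1 with the compared groups alone. Leaving out 1 library in turn gave 11 to 24 member calls in Sensitized vs Naive (6.59% to 14.4% of 167, where the share of all peaks called ran from 6.69% to 10.9%), 0 to 4 in N+P C1 vs Naive (0% to 2.4%, all 0% to 1.18%), 0 to 3 in S+P C4 vs Sensitized (0% to 1.8%, all 0.488% to 1.94%), 5 to 16 in S+P C5 vs Sensitized (2.99% to 9.58%, all 4.61% to 9.29%), 15 to 22 in S+P C7 vs Sensitized (8.98% to 13.2%, all 10.3% to 14.5%), 30 to 37 in S+P C5 relative to N+P C5 (18% to 22.2%, all 16.2% to 18.7%), 1 to 4 in S+P C7 vs S+P C5 (0.599% to 2.4%, all 1.3% to 4.47%), 4 to 12 in S+P C5 vs S+P C4 (2.4% to 7.19%, all 3.6% to 6.16%) and 6 to 23 for the difference of C5 effects (3.59% to 13.8%, all 2.92% to 12%). Libraries that moved a count above 5 by over 1.5 times are named with the results. The causes were not tested. With the replicate block, S+P C5 vs S+P C4 gave 10 calls (8 without), S+P C7 vs S+P C5 1 and N+P C5 vs N+P C1 0, so that it moved no count of the paired subsets by over 1.5 times. Where groups share only a number, the block gave 19 calls in Sensitized vs Naive, 10 in S+P C5 vs Sensitized, 21 in S+P C7 vs Sensitized, 36 in S+P C5 relative to N+P C5 and 7 for the difference of C5 effects. A promoter limit of 500 bp or 2000 bp left 44 or 60 promoter peaks. Low counts limit the peaks that were nearly closed in cells of naive history.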
